A study of Mus musculus with 16 samples.

Results

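The genes described here are the mouse genes of MHC antigen presentation: every gene whose symbol starts with H2-, together with B2m, Tap1, Tap2, Tapbp, Psmb8, Psmb9, Psmb10, Psme1, Psme2, Cd74, Ciita, Erap1, Ctss and Ifi30. Of 12394 genes that had a probe set with 1 symbol, 34 belonged to this group, and each was read from its brightest such probe set. Psme2 had no such probe set and has no value here. RNA was measured on 16 Affymetrix arrays, all from mice of FVB/N background. 7 arrays held mammary tumours of mice with the STAT5ca transgene, a constitutively active STAT5. 6 held mammary tumours of mice with the STAT5Δ750 transgene, a STAT5 truncated at its C-terminus, and 3 held normal mammary gland. STAT5 acts downstream of the prolactin receptor in the mammary epithelium. The labels name neither the promoter that drives the transgenes, nor the age of the mice, the stage of the glands or the H2 haplotype, and they give the glands no genotype. Nothing in them says that the arrays came from separate animals, so the p values measure the spread between these arrays.

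MHC molecules show peptides to T cells. Class I molecules pair a heavy chain with B2m, sit on nearly all nucleated cells, and receive peptides that the proteasome cuts and the TAP transporter pumps into the endoplasmic reticulum. Class II molecules pair an alpha with a beta chain, are made mainly by B cells, dendritic cells and macrophages, and are loaded in endosomes with the help of the invariant chain Cd74 and the H2-DM and H2-O chaperones. Interferon gamma raises both arms, and class II transcription depends on the coactivator Ciita.

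Read from their brightest probe sets, the classical class I heavy chains H2-K1 and H2-D1 were bright and varied little in all 3 groups, while the class II chains were scattered over a wide range in the tumours. Other class I arm genes, and other probe sets of the class I heavy chains, varied more. A gene was tested if its signal passed 35.4, the 40th percentile of all values, on at least 3 arrays, which kept 25 of the 34 members among 9252 genes. Of these, 13 belonged to the class I arm, 11 to the class II arm, and 1, H2-Ke6, is a neighbour in the H2 locus that codes for a hydroxysteroid dehydrogenase and no MHC chain. In STAT5ca tumours against gland, 0 members rose and 2 fell, H2-Oa and H2-DMb2, where 13.2% of all genes tested fell. In STAT5Δ750 tumours against gland, 0 rose and 5 fell, H2-Oa, H2-DMb2, H2-Ea, H2-Eb1 and H2-Ke6, where 14% of all genes fell. The members that fell were thus 8% of 25 in STAT5ca tumours and 20% in STAT5Δ750 tumours, not far from the shares of all genes. These calls are from limma at an adjusted p under 0.05. Of the 13 class I arm genes, 0 passed in either comparison. At an unadjusted p under 0.05 there were 0 in STAT5ca tumours and 1 in STAT5Δ750 tumours, where 3075 and 3252 of all 9252 genes were. Each comparison uses the same 3 glands. In bulk tissue, fewer cells of a type and less RNA per cell cannot be told apart.

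One array stood apart. STAT5ca_177, labelled as a mammary tumour, had a Krt8 signal of 25.3 and an Epcam signal of 80.3, epithelial genes that read 3836 or more and 3499 or more on the other STAT5ca arrays. Its mean log2 value over 12 macrophage markers was 11.73, against at most 9.98 on any other tumour and 9.35 to 9.75 in glands. Without it, 8 members fell in STAT5ca tumours (H2-Oa, H2-DMb2, H2-DMa, H2-Aa, H2-Ab1, H2-Ea, Ciita and H2-M3), where 17.5% of all genes fell. One of them, Ciita, was then above the threshold in glands alone, so that the filter fixed its direction and its call carries no weight in either tumour type. H2-Oa and H2-DMb2 were then above it on fewer than 3 tumour arrays and kept only with the glands, so the filter favoured their fall. Because the groups share an estimate of spread, 9 then fell in STAT5Δ750 tumours (H2-Oa, H2-DMb2, H2-DMa, H2-Ea, H2-Eb1, Ciita, H2-M3, Ifi30 and H2-Ke6), where 17.9% of all genes fell. The other epithelial, B cell, T cell, dendritic cell and endothelial lists are given beside the results they move with. The beta-actin 3'/5' signal ratio, a sign of RNA quality, was 1.76 to 5.27 on STAT5ca arrays, 1.27 to 3.50 on STAT5Δ750 arrays and 1.07 to 1.25 on gland arrays. Its part in the results was not tested beyond a fit with the ratio as a covariate, which called 1 member (H2-Oa) lower in STAT5ca tumours, where 8.06% of all genes were, and 3 (H2-Oa, H2-DMb2 and H2-Ke6) in STAT5Δ750 tumours, where 12.1% were.

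**Figure D1:**
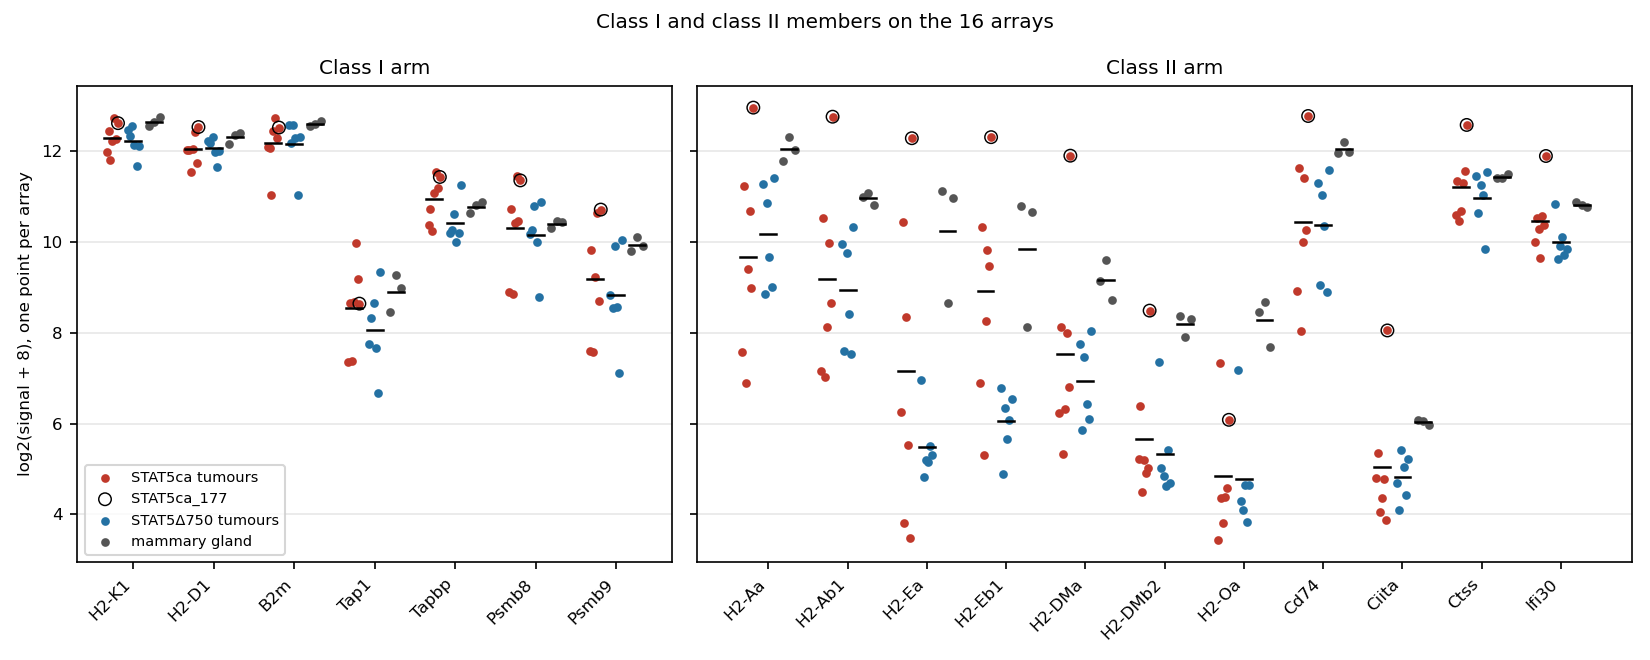
Log2(signal + 8) of class I arm (left) and class II arm (right) genes, 1 point per array and a black bar for each group's mean, with STAT5ca tumours, STAT5Δ750 tumours and gland from left to right in each column. The probe sets used for H2-K1 and H2-D1 are bright and narrow in all groups, and B2m is bright with 1 low array in each tumour type. The class II genes are spread over several log2 units in tumours, and STAT5ca_177 (ringed) is the highest array for H2-Aa, H2-Ab1, H2-Ea, H2-Eb1, H2-DMa, Cd74, Ciita, Ctss and Ifi30.

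Many class I and class II promoters are known to share a set of upstream boxes, among them the X2 box, bound by CREB family factors, and the Y box, bound by NF-Y. Promoters of 5 chains, from both classes whose tumour signals are contrasted here, are shown because a search for the letters of these boxes matched in them. Each line is a stretch of 120 bases that ends at or before the RefSeq start in build GRCm38.p6 (C57BL/6J), 5′ to 3′ on the gene's strand. The capitals mark TGANG and ATTGG, the letters searched for the X2 and Y boxes with 18 to 24 bases between them. H2-K1 lies at chr17:34000348-34000467, minus strand, and H2-D1 at chr17:35262943-35263062, plus strand. B2m lies at chr2:122147559-122147678, plus strand. H2-Aa lies at chr17:34287827-34287946, minus strand, and H2-Eb1 at chr17:34305733-34305852, plus strand.
H2-K1: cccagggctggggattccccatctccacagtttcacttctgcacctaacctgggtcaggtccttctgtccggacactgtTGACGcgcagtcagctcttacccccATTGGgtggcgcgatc
H2-D1: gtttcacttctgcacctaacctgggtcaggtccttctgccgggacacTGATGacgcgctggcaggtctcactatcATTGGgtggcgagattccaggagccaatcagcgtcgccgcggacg
B2m: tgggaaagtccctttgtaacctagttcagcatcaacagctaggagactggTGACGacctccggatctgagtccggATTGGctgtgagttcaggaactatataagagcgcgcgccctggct
H2-Aa: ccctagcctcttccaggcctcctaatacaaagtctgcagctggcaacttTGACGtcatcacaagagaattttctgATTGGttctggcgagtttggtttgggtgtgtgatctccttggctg
H2-Eb1: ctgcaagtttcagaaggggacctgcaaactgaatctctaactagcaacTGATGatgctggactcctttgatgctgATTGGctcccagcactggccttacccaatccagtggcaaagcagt
The capitals mark the first match in each promoter. The gap so marked was 20 bases in H2-K1 and B2m, 21 in H2-Aa, 22 in H2-Eb1 and 23 in H2-D1, within what the search allowed. In H2-D1 a TGACG overlaps the marked TGATG and lies 20 bases from ATTGG, as in H2-K1 and B2m. In H2-Eb1 a further TGATG overlaps the marked one and lies nearer to ATTGG. The gaps given for H2-D1 and H2-Eb1 thus depend on which match is marked. From ATTGG to the start there were 11 bases in H2-K1, 71 in H2-D1, 48 in B2m, 43 in H2-Aa and 54 in H2-Eb1. Of the 34 members, 24 had a promoter in the table. Within 250 bases upstream of the start and on either strand, 4 of 16 class I arm genes and 3 of 7 class II arm genes held the spaced pair, against 1.64% of 32851 promoters. A member gene was counted if any of its promoters matched, while the background counts single promoters, so the units differ. The 7 genes were H2-K1, H2-D1, B2m, H2-M3, H2-Aa, H2-Eb1 and H2-DMb2. TTCNNNGAA, the letters of a STAT site, were in 3 of the 24 (H2-M3, H2-DMb2 and Psmb8), against 7.02% of all promoters. A match is only a match of letters, in a reference strain that is not the strain of these mice.

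The classical class I heavy chains H2-K1 and H2-D1, which present peptides to CD8 T cells, were among the brightest members. H2-K1 (probe set 1425336_x_at) had a lowest, median and highest signal of 3559, 4883 and 6732 on STAT5ca arrays and of 3230, 4799 and 5937 on STAT5Δ750 arrays, against 5940, 6367 and 6806 in glands. All 6 STAT5Δ750 tumours lay below the glands, and the STAT5ca tumours overlapped them. The log2 change was -0.35 ± 0.22 in STAT5ca tumours (± SE, limma adjusted p = 0.293) and -0.44 ± 0.23 in STAT5Δ750 tumours (adjusted p = 0.189). H2-D1 (probe set 1425545_x_at) had 2956, 4142 and 5853 on STAT5ca arrays and 3198, 4336 and 5036 on STAT5Δ750 arrays, against 4532, 5223 and 5354 in glands. Its groups overlapped, with log2 changes of -0.26 ± 0.22 in STAT5ca tumours (adjusted p = 0.424) and -0.25 ± 0.22 in STAT5Δ750 tumours (adjusted p = 0.450). Over the 13 tumours, these probe sets spanned 2.08-fold for H2-K1 and 1.98-fold for H2-D1.

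Other probe sets of the same genes were dimmer and wider. For H2-K1, 1427746_x_at had 631.1 to 4611 in tumours and 3189 to 4372 in glands, and 1450534_x_at had 68.8 to 854.8 in tumours and 294.1 to 337.1 in glands. For H2-D1, 1426324_at, which lacks the suffix of shared probes, had 242.3 to 1407 in tumours and 1122 to 2154 in glands. Its log2 change was -1.32 in STAT5ca tumours and -1.24 in STAT5Δ750 tumours, and none of these 3 passed. With all probe sets of a gene averaged, the change of H2-D1 was -1.17 in STAT5ca tumours (limma adjusted p = 0.113) and -1.36 in STAT5Δ750 tumours (0.0672), and that of H2-K1 was -0.56 in STAT5ca tumours (0.315) and -0.77 in STAT5Δ750 tumours (0.161).

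Probe sets annotated to several class I heavy chains had more negative changes than the brightest H2-K1 and H2-D1 probe sets. There were 9 of them, chosen after their values were seen, and they name H2-K1, H2-D1, the H2-Q genes and the H2-T genes in combinations that one signal cannot divide. All 9 had negative log2 changes in both comparisons, from -2.82 to -0.39 in STAT5ca tumours (median -1.34) and from -2.33 to -0.60 in STAT5Δ750 tumours (median -1.84), where the median of all 15764 probe sets tested was 0.01 in STAT5ca tumours and 0.05 in STAT5Δ750 tumours. By limma over those probe sets 0 passed in STAT5ca tumours, and 1, 1439121_at (H2-T9, H2-T22 and H2-T10), fell in STAT5Δ750 tumours, with -1.96 ± 0.56 (adjusted p = 0.0241), where 11% of probe sets fell. The range over tumours was wide. 1418536_at (H2-Q9 and H2-Q7) had 44.5 to 2453 in tumours and 1189 to 1700 in glands, and 1449556_at (H2-T-ps and H2-T23) had 185.3 to 4269 in tumours and 1247 to 2438 in glands. STAT5ca_169 was the highest tumour in both.

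B2m, the light chain shared by class I molecules, had 2072, 4937 and 6724 on STAT5ca arrays and 2087, 4977 and 6042 on STAT5Δ750 arrays, against 5923, 6135 and 6373 in glands. One tumour of each type was low, STAT5ca_213 and STAT5Δ750_178, while the others lay at 4278 or above. The log2 change was -0.43 ± 0.35 in STAT5ca tumours (adjusted p = 0.415) and -0.44 ± 0.36 in STAT5Δ750 tumours (adjusted p = 0.402). These small differences shift with the scaling of the arrays. With each array scaled to a common median, the median change of all genes moved to 0.25 in STAT5ca tumours, against -0.02 with the deposited signals, and H2-D1 turned to 0.03, while H2-K1 and B2m stayed below 0 at -0.06 and -0.14. In STAT5Δ750 tumours all 3 genes stayed below 0. The median of the 4 class I heavy chains minus that of all genes was -0.29 in STAT5ca tumours with the deposited signals and -0.27 after that scaling. The split of genes called higher and lower in STAT5ca tumours went with it, 622 and 1222 as deposited, and 1284 and 867 after scaling. In STAT5Δ750 tumours it was 704 and 1296 as deposited, and 860 and 959 after scaling.

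The nonclassical heavy chains H2-M3, which presents formylated peptides of bacteria, and H2-Q2 were dimmer and more variable. H2-M3 had 56.8, 142.5 and 1739 on STAT5ca arrays and 62.5, 186.2 and 283.6 on STAT5Δ750 arrays, against 552.4, 664.3 and 739.7 in glands. All 6 STAT5Δ750 tumours and 5 of 7 STAT5ca tumours were below the glands, and STAT5ca_169 and STAT5ca_177 were above them. Its log2 change of -1.98 ± 0.83 in STAT5Δ750 tumours did not pass (adjusted p = 0.101) but did without STAT5ca_177 (0.0322). H2-Q2 had 1, 30.8 and 239.8 on STAT5ca arrays and 23.9, 51.8 and 165.7 on STAT5Δ750 arrays, against 13.6, 21.6 and 27 in glands, near the threshold of 35.4. The other 9 H2 class I names (H2-D4, H2-Bl, H2-M10.1, H2-M9, H2-Q10, H2-Q5, H2-T18, H2-T24 and H2-T3) did not reach the threshold on 3 arrays, with signals of 0.4 to 66.7, and were not tested. H2-D4, H2-Bl and H2-Q5 among them are annotated as transcribed pseudogenes in the reference.

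Genes of peptide supply to class I varied widely between tumours. Psmb8 and Psmb9 are catalytic subunits that turn the proteasome into the immunoproteasome. Psmb8 had 451.6, 1403 and 2785 on STAT5ca arrays and 432, 1174 and 1871 on STAT5Δ750 arrays, against 1251, 1374 and 1396 in glands. STAT5ca_169 and STAT5ca_177 were the highest, with 2785 and 2592, and STAT5ca_123, STAT5ca_213 and STAT5Δ750_178 the lowest, with 468.7, 451.6 and 432. Psmb9 had those arrays at its ends, with 183.5, 584.2 and 1659 on STAT5ca arrays and 130.9, 406.8 and 1047 on STAT5Δ750 arrays, against 873.9, 949.3 and 1083 in glands. Neither passed. The log2 change of Psmb8 was -0.09 ± 0.55 in STAT5ca tumours (adjusted p = 0.928) and -0.26 ± 0.57 in STAT5Δ750 tumours (0.785), and that of Psmb9 was -0.75 ± 0.71 in STAT5ca tumours (0.491) and -1.10 ± 0.72 in STAT5Δ750 tumours (0.298). The third such subunit, Psmb10, spanned 159.2 to 1489 over the tumours. Psme1, a subunit of the PA28 proteasome activator, was steady, with 1462, 1838 and 2260 on STAT5ca arrays and 1037, 1502 and 1821 on STAT5Δ750 arrays, against 1342, 1593 and 1624 in glands.

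Tap1, a chain of the peptide transporter, had 156.5, 390.9 and 986.4 on STAT5ca arrays and 93.7, 258.4 and 637.9 on STAT5Δ750 arrays, against 344.5, 493.8 and 604.4 in glands. STAT5ca_169 and STAT5Δ750_160 lay above the glands. STAT5ca_123 and STAT5ca_213, and 4 STAT5Δ750 tumours, lay below them. The log2 change was -0.35 ± 0.56 in STAT5ca tumours (adjusted p = 0.700) and -0.84 ± 0.57 in STAT5Δ750 tumours (0.316). Tapbp, or tapasin, which holds class I molecules at the transporter, had 1190, 2134 and 2957 on STAT5ca arrays and 1010, 1190 and 2417 on STAT5Δ750 arrays, against 1567, 1771 and 1859 in glands. Its groups overlapped, with changes of 0.17 ± 0.31 in STAT5ca tumours (0.740) and -0.35 ± 0.31 in STAT5Δ750 tumours (0.451). Tap2, the other transporter chain, and Erap1, which trims peptides in the endoplasmic reticulum, had log2 changes between -0.41 and 0.14 that did not pass.

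**Figure D2:**
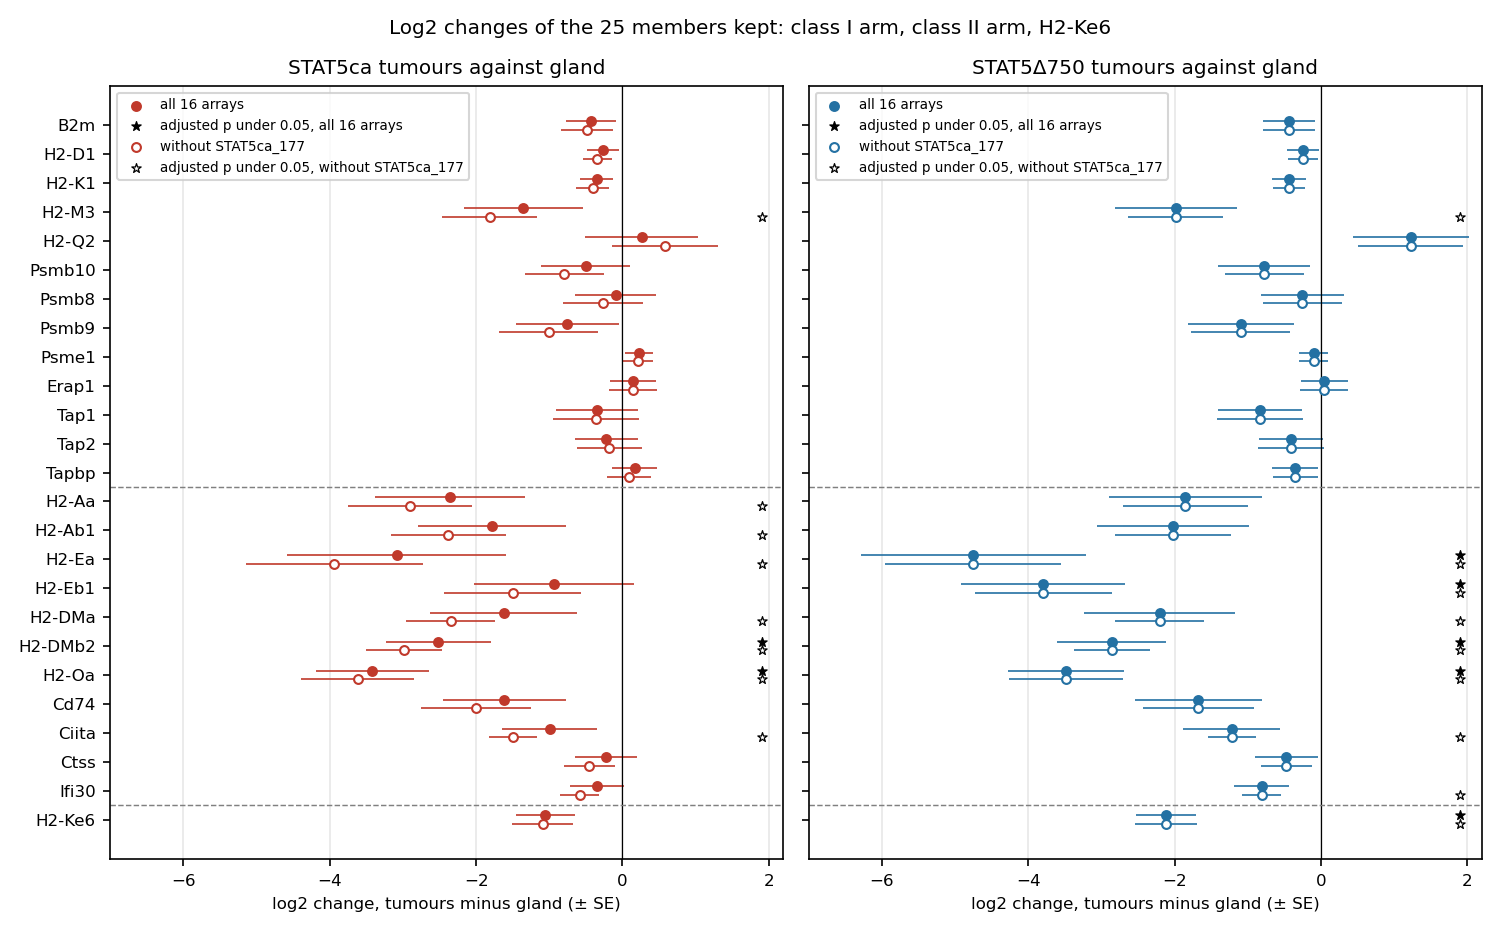
Log2 change ± SE (limma, log2(signal + 8)) of the 25 members tested in STAT5ca tumours against gland (left) and STAT5Δ750 tumours against gland (right), with all 16 arrays (filled) and without STAT5ca_177 (open). Stars mark an adjusted p under 0.05. All 11 class II arm genes between the dashed lines are below 0 in each panel, from -4.75 to -0.22 with all arrays, and stars in the class I arm stand at H2-M3 alone and without STAT5ca_177 only. Ciita is above the threshold in glands alone without that array, which fixes the sign of its open points. H2-Oa and H2-DMb2 are then kept only with the glands, so that the filter favours open points below 0.

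The class II chains were bright in glands and spanned wide ranges in tumours. H2-Aa, the alpha chain of the H2-A molecule, had 110.9, 666.4 and 7869 on STAT5ca arrays and 453.5, 1314 and 2703 on STAT5Δ750 arrays, against 3466, 4104 and 5059 in glands. All tumours but STAT5ca_177 lay below the glands. The log2 change was -2.36 ± 1.02 in STAT5ca tumours (limma adjusted p = 0.119) and -1.86 ± 1.04 in STAT5Δ750 tumours (0.219). Without STAT5ca_177 the STAT5ca change was -2.90 ± 0.85 and passed (adjusted p = 0.0175). H2-Ab1, its beta chain, had 121.8, 392.8 and 6852 on STAT5ca arrays and 177.3, 593.3 and 1273 on STAT5Δ750 arrays, against 1770, 2017 and 2141 in glands. Again STAT5ca_177 alone was above the glands. The changes were -1.78 ± 1.01 in STAT5ca tumours (0.236) and -2.02 ± 1.03 in STAT5Δ750 tumours (0.176), and without that array -2.38 ± 0.79 in STAT5ca tumours (0.0324). Over the 13 tumours, H2-Aa spanned 71-fold and H2-Ab1 56.3-fold.

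The H2-E chains gave the largest changes among the members in STAT5Δ750 tumours. H2-Eb1, the beta chain, had 31.5, 702.5 and 5016 on STAT5ca arrays and 21.7, 66.4 and 101.5 on STAT5Δ750 arrays, against 268.7, 1600 and 1741 in glands. All STAT5Δ750 tumours were below the lowest gland, gland 4, while 5 of 7 STAT5ca tumours were above it. H2-Eb1 fell in STAT5Δ750 tumours, with a log2 change of -3.80 ± 1.12 (adjusted p = 0.0254), and in STAT5ca tumours the change was -0.94 ± 1.10 (0.590). The STAT5Δ750 call was lost without gland 1 (adjusted p = 0.124), without gland 6 (0.104) and with the actin ratio as a covariate (0.120). H2-Ea, the alpha chain, had 3.2, 67.8 and 4935 on STAT5ca arrays and 20.2, 30 and 116.4 on STAT5Δ750 arrays, against 393.5, 1994 and 2199 in glands. It fell in STAT5Δ750 tumours, with a log2 change of -4.75 ± 1.53 (0.0377), and in STAT5ca tumours the change was -3.08 ± 1.5 (0.162). The STAT5Δ750 call was lost without any 1 of the glands (0.0703 to 0.146), with the actin ratio as a covariate (0.0911), without any 1 of STAT5Δ750_92, STAT5Δ750_165, STAT5Δ750_174, STAT5Δ750_178 and STAT5Δ750_160 (0.0540 to 0.0614), and with an offset of 1 (0.0545).

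Set against H2-Aa on the same array, the H2-E chains divided the arrays in a way that the groups only partly follow. This pattern was chosen after the values were seen and is given with no test. With gland 1 set to 0, log2 H2-Eb1 minus log2 H2-Aa was -0.60 to 1.49 on STAT5ca arrays and -3.87 to -1.93 on STAT5Δ750 arrays, against -0.36 on gland 6 and -3.20 on gland 4. No STAT5ca array fell within the STAT5Δ750 range, and gland 4 did. For H2-Ea minus H2-Aa, STAT5Δ750 arrays had -5.45 to -2.82, STAT5ca_169 and STAT5ca_171 had -4.50 and -4.83, and STAT5ca_213 had -2.42. The other 4 STAT5ca arrays had -0.67 to -0.02, against -0.38 on gland 6 and -3.00 on gland 4. Thus STAT5ca_169 and STAT5ca_171 were low in H2-Ea and not in H2-Eb1, while gland 4 and the STAT5Δ750 tumours were low in both. H2-Ea is annotated as a transcribed pseudogene in the C57BL/6J reference, and the haplotype of these mice was not measured.

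**Figure D3:**
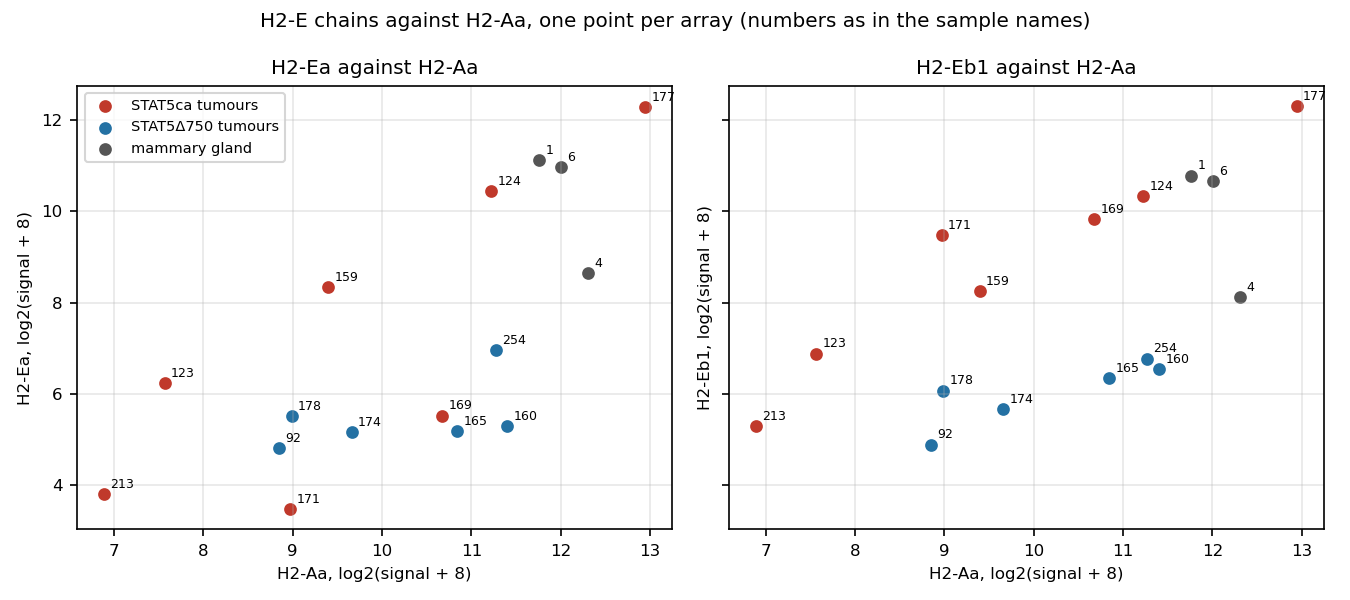
Log2(signal + 8) of H2-Ea (left) and H2-Eb1 (right) against that of H2-Aa, 1 point per array, with the number from the sample name. The 6 STAT5Δ750 tumours and gland 4 lie below the other glands and most STAT5ca tumours at like H2-Aa levels in both panels, and STAT5ca_169 and STAT5ca_171 lie low in the H2-Ea panel only.

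H2-DM, which helps to exchange peptides on class II molecules, and H2-O, which restrains H2-DM mainly in B cells, act together in class II loading. H2-DMb2 and H2-Oa passed in both tumour types. H2-DMa had 32, 103.2 and 3781 on STAT5ca arrays and 50.1, 123.6 and 255 on STAT5Δ750 arrays, against 409.7, 552.2 and 768 in glands, and only STAT5ca_177 exceeded the glands. Its changes of -1.62 ± 1.01 in STAT5ca tumours (adjusted p = 0.281) and -2.20 ± 1.03 in STAT5Δ750 tumours (0.141) did not pass. Without STAT5ca_177 they did, at -2.35 ± 0.61 in STAT5ca tumours (0.00874) and -2.20 ± 0.61 in STAT5Δ750 tumours (0.0138). H2-DMb2 had 14.4, 28.5 and 349.5 on STAT5ca arrays and 16.7, 22.6 and 154.3 on STAT5Δ750 arrays, against 231.2, 304.2 and 321.4 in glands. It fell in both tumour types, with log2 changes of -2.51 ± 0.72 in STAT5ca tumours (0.0225) and -2.86 ± 0.74 in STAT5Δ750 tumours (0.0126). The STAT5ca call was lost without gland 1, 4 or 6 (0.0970, 0.0743 and 0.0789) and with the actin covariate (0.178), and the STAT5Δ750 call without gland 1 (0.0611). STAT5ca_177 and STAT5Δ750_254 were the high tumours. A pair of probe sets annotated to H2-DMb2 and H2-DMb1 together did not pass, with -1.01 and -0.59 in STAT5ca tumours and -1.83 and -1.62 in STAT5Δ750 tumours.

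H2-Oa, a chain of H2-O, had 2.8, 12.8 and 153.2 on STAT5ca arrays and 6.2, 14.4 and 135.9 on STAT5Δ750 arrays, against 198.1, 342.8 and 399.6 in glands. All 13 tumours lay below the glands, and STAT5ca_124 and STAT5Δ750_254 were the highest, with 59.7 or less on the rest. It fell in both, with log2 changes of -3.42 ± 0.77 in STAT5ca tumours (limma adjusted p = 0.00555) and -3.49 ± 0.79 in STAT5Δ750 tumours (0.00573), and kept both calls under all 27 alternatives run. Without STAT5ca_124, STAT5ca_177 or STAT5Δ750_254, and with the filter at the 60th percentile, H2-Oa was kept only with the glands. The filter favoured a fall in those fits, so they add no support. Most tumour signals were below the threshold of 35.4, so the size of the fall depends on the offset. B cell markers moved with it, as did the lists of T and NK cells and of dendritic cells. The mean log2 value of 10 B and plasma cell genes was 8.27 on STAT5ca_124 and 8.33 on STAT5Δ750_254, 4.35 to 5.86 on the other tumours, and 9.03 to 9.62 in glands. Cd79a, part of the B cell receptor, had 202.8 on STAT5ca_124, 221.6 on STAT5Δ750_254 and 22.7 or less on the other tumours, against 413.2 to 931.6 in glands. In that list 9 of 10 genes fell in STAT5ca tumours and 8 of 10 in STAT5Δ750 tumours, where 13.2% and 14% of all genes fell. Among tumours, Cd79a, Ms4a1, Cr2, Blk, Cxcr5 and Fcer2a passed 35.4 only on STAT5ca_124 and STAT5Δ750_254. They were thus kept only with the glands, so the filter favoured a fall and their calls carry no weight. The T and NK cell list had mean log2 values of 5.82 on STAT5ca_124, 6.87 on STAT5Δ750_254 and 5.996 on STAT5ca_177. The other tumours had 3.95 to 4.73. The dendritic cell list had 6.66, 6.91 and 6.85 on those arrays and 5.16 to 6.23 on the other tumours. The part of B cells, or of these other cell types, in the H2-Oa result was not tested.

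Cd74, the invariant chain that occupies the groove of new class II molecules, had 254.2, 1206 and 6927 on STAT5ca arrays and 464.6, 1682 and 3042 on STAT5Δ750 arrays, against 3952, 4005 and 4654 in glands. Only STAT5ca_177 was above the glands, and the other 12 tumours were below them. The changes of -1.61 ± 0.84 in STAT5ca tumours (adjusted p = 0.197) and -1.68 ± 0.86 in STAT5Δ750 tumours (0.179) did not pass. Ciita, the class II coactivator, had 6.7, 19.3 and 256.3 on STAT5ca arrays and 9.1, 21.4 and 34.7 on STAT5Δ750 arrays, against 55, 58.7 and 59.1 in glands. It passed the threshold of 35.4 on 1 STAT5ca array (STAT5ca_177), 0 STAT5Δ750 arrays and 3 glands, so that it entered the test mainly through the glands, and through them alone without STAT5ca_177. The changes were -0.995 ± 0.65 in STAT5ca tumours (0.305) and -1.22 ± 0.66 in STAT5Δ750 tumours (0.204). Without STAT5ca_177 they were -1.497 ± 0.33 in STAT5ca tumours and -1.22 ± 0.33 in STAT5Δ750 tumours, values that the filter bound to be negative and that are given with no test.

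The lysosomal enzymes of the class II arm stayed nearer to the glands. Ctss, or cathepsin S, which cuts the invariant chain, had 1401, 2475 and 6043 on STAT5ca arrays and 908.1, 2243 and 2959 on STAT5Δ750 arrays, against 2685, 2698 and 2860 in glands. Its groups overlapped, with changes of -0.22 ± 0.42 in STAT5ca tumours (adjusted p = 0.749) and -0.47 ± 0.43 in STAT5Δ750 tumours (0.453). Ifi30, a thiol reductase that opens disulfide bonds of antigens, had 794.7, 1316 and 3762 on STAT5ca arrays and 775.8, 929.8 and 1816 on STAT5Δ750 arrays, against 1721, 1787 and 1857 in glands. Its differences from gland, -0.35 ± 0.37 in STAT5ca tumours (0.544) and -0.81 ± 0.38 in STAT5Δ750 tumours (0.137), did not pass. Macrophages are known to be rich in both enzymes. Of 12 macrophage markers, limma called 0 in STAT5ca tumours and 1 lower in STAT5Δ750 tumours, where 13.2% and 14% of all genes fell. At an unadjusted p under 0.05 there were 3 in STAT5ca tumours, where 3075 of all 9252 genes were. Without STAT5ca_177, limma called 3 markers lower in STAT5ca tumours and 2 in STAT5Δ750 tumours, where 17.5% and 17.9% of all genes fell. The mean log2 values of the markers were 8.43 to 11.73 on STAT5ca arrays, 8.42 to 9.85 on STAT5Δ750 arrays and 9.35 to 9.75 in glands.

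H2-Ke6, the dehydrogenase gene of the locus, fell in STAT5Δ750 tumours under all 27 alternatives run. It had 88.3, 187.8 and 319.9 on STAT5ca arrays and 34, 90.6 and 128.3 on STAT5Δ750 arrays, against 332.5, 335.1 and 392.4 in glands. All 13 tumours lay below the glands. The log2 change was -2.12 ± 0.41 in STAT5Δ750 tumours (limma adjusted p = 0.00215) and -1.05 ± 0.40 in STAT5ca tumours (0.0791), where it passed without STAT5ca_124 (0.0401).

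Set side by side in the probe sets used, the class II chains lay lower and spread more than the class I heavy chains. The 7 class II chains (H2-A, H2-E, H2-DM and H2-O) had a median change of -2.36 in STAT5ca tumours and -2.86 in STAT5Δ750 tumours. The 4 class I heavy chains tested had -0.31 in STAT5ca tumours and -0.34 in STAT5Δ750 tumours, and all 9252 genes had -0.02 in STAT5ca tumours and -0.04 in STAT5Δ750 tumours. The class II median minus that of all genes was -2.33 in STAT5ca tumours and -2.82 in STAT5Δ750 tumours with the deposited signals, and -2.32 in STAT5ca tumours and -2.82 in STAT5Δ750 tumours after median scaling. The class II median change minus the class I median change was -2.05 in STAT5ca tumours and -2.52 in STAT5Δ750 tumours. It was -1.06 in STAT5ca tumours and -1.79 in STAT5Δ750 tumours when probe sets were averaged per gene, and -0.86 in STAT5ca tumours and -2.42 in STAT5Δ750 tumours with the actin ratio as a covariate. Probe sets with several symbols, described above, enter none of these medians. In STAT5Δ750 tumours, 9 class II arm genes (Ciita, kept mainly through the glands, among them) and 2 class I arm genes (H2-K1 and H2-M3) lay below the glands on every array. With H2-Ke6 this makes 12 of 25 members, where 20.3% of all genes did so. In STAT5ca tumours only H2-Oa and H2-Ke6 did, 2 of 25, where 13.3% of all genes did so. The median SD of log2 values over the 13 tumours was 1.67 for the class II chains, 0.83 for the class I heavy chains and 0.51 for all genes tested. Without STAT5ca_177 these were 1.29, 0.68 and 0.46.

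For 1 measure of the contrast per array, log2 Cd74 was set against log2 B2m. Cd74 minus B2m averaged -1.73 ± 1.29 in STAT5ca tumours (SD, n = 7) and -1.79 ± 0.83 in STAT5Δ750 tumours (SD, n = 6), against -0.55 ± 0.14 in glands (SD, n = 3). All 6 STAT5Δ750 tumours and 5 of 7 STAT5ca tumours lay below the lowest gland. The difference from gland was -1.18 in STAT5ca tumours (two-sided exact permutation p = 0.175, adjusted 0.263 over 3 comparisons). It was -1.24 in STAT5Δ750 tumours (exact permutation p = 0.0357, adjusted 0.107, where 84 regroupings allow no p under 0.0119). Between the tumour types it was 0.06 (exact permutation p = 0.931).

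**Figure D4:**
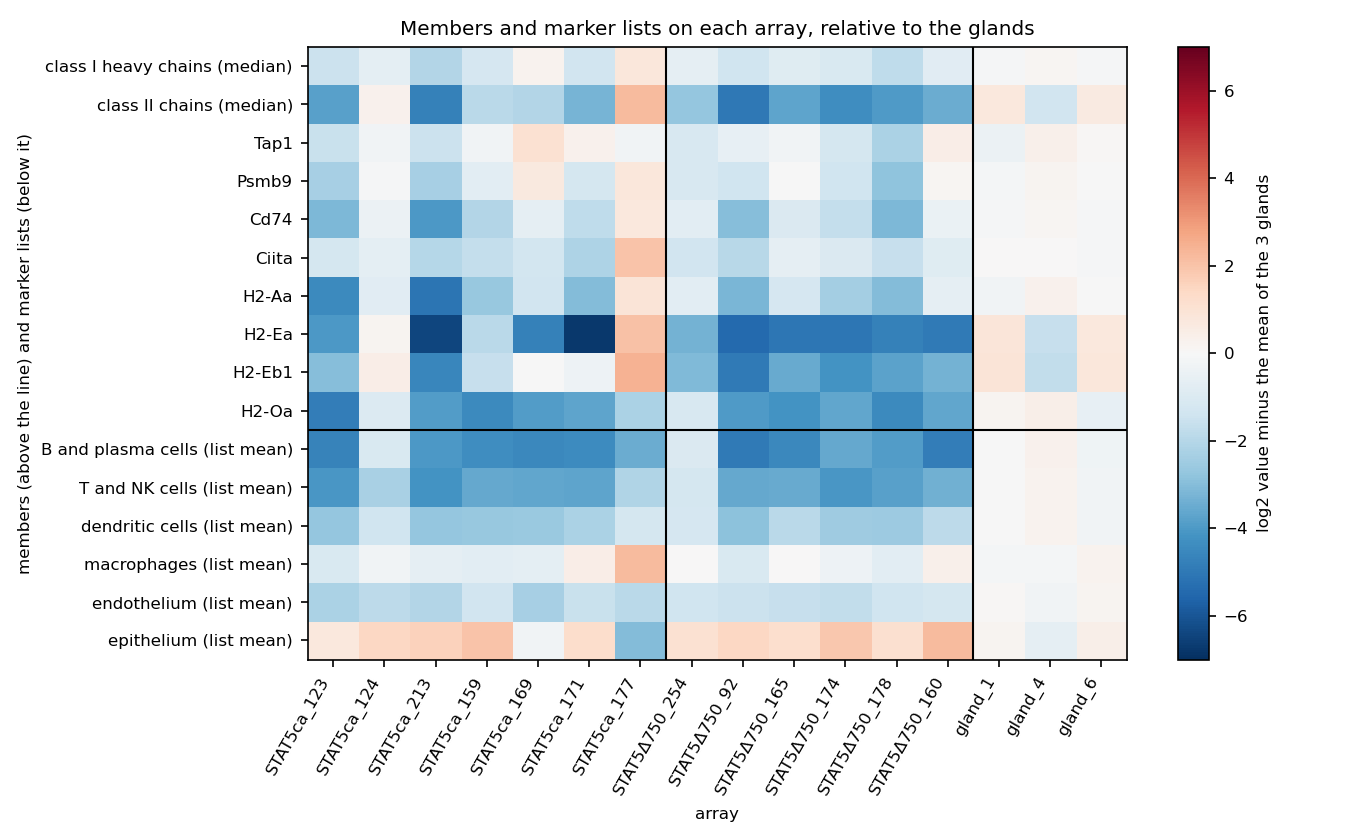
Log2 values minus the mean of the 3 glands for class I and class II medians and single members (above the line) and for the mean of each marker list (below it), by array, with STAT5ca tumours left, STAT5Δ750 tumours in the middle and gland right. Red is higher and blue lower than the gland mean. The H2-Oa and B cell rows are paler on STAT5ca_124 and STAT5Δ750_254 than on most other tumours, and STAT5ca_177 is red for class II and macrophages and blue for epithelium.

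Markers of several other cell types differed between tumours and glands as well. Of all genes tested, 13.2% fell in STAT5ca tumours and 14% in STAT5Δ750 tumours. In the list of T and NK cells 11 of 12 genes fell for each tumour type. Mean log2 values were 3.95 to 5.996 on STAT5ca arrays, 4.02 to 6.87 on STAT5Δ750 arrays and 7.86 to 8.38 in glands. Cd2, Cd5, Cd28, Cd247, Cd8a and Il2rb passed 35.4 on fewer than 3 tumour arrays and were kept only with the glands. The filter favoured their fall, so calls of these genes carry no weight. Of 9 dendritic cell genes, 6 fell in each, with 5.33 to 6.85 on STAT5ca arrays, 5.16 to 6.91 on STAT5Δ750 arrays and 7.82 to 8.31 in glands. Flt3 and Cd209a passed 35.4 in glands alone, so the filter fixed their direction. Ccr7 and Zbtb46 passed it on fewer than 3 tumour arrays and were kept only with the glands, which favoured a fall. Calls of these dendritic cell genes carry no weight. Of 8 endothelial genes 6 fell in each. Of 8 epithelial genes 1 rose in STAT5ca tumours and 2 in STAT5Δ750 tumours, where 6.72% and 7.61% of all genes rose. Without STAT5ca_177, 5 epithelial genes rose in each, where 13.5% and 11.8% of all genes rose. The part of these cell types in the class II results was not tested.

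The tumour types were compared directly as STAT5ca over STAT5Δ750. By limma 0 of 25 members passed, as did 0% of all 9252 genes, also with a trended and robust fit. At an unadjusted p under 0.05 there were 2 members, where 5.67% of all genes were. H2-Eb1 was higher in STAT5ca by 2.86 ± 0.88 on the log2 scale (limma adjusted p = 0.809, and 0.452 to 0.998 over the alternatives). H2-Ke6 was higher by 1.06 ± 0.33 (limma adjusted p = 0.809). For the other members the difference ran from -0.96 ± 0.62 (H2-Q2) to 1.67 ± 1.21 (H2-Ea), with 0.08 ± 0.18 for H2-K1, -0.02 ± 0.17 for H2-D1 and 0.06 ± 0.68 for Cd74. The SE of the class II chains was thus several times that of the classical class I chains, and a difference of that size in them could have been missed. Effects against gland in the 2 tumour types are not shown to differ where this comparison did not pass.

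Neighbouring pathways were read from lists in the fit that served the members. Among 12 genes of class I folding and peptide supply, 3 rose in STAT5ca tumours and 5 in STAT5Δ750 tumours, and 0 fell, where 6.72% and 7.61% of all genes rose. Sec61a1, the channel of the endoplasmic reticulum, rose by 1.12 ± 0.24 in STAT5ca tumours (limma adjusted p = 0.00402) and by 1.12 ± 0.25 in STAT5Δ750 tumours (0.00469). The chaperone Hspa5 rose by 0.62 ± 0.16 in STAT5ca tumours (0.0136) and by 0.60 ± 0.17 in STAT5Δ750 tumours (0.0172). Thop1, an oligopeptidase of the cytosol, rose by 1.38 ± 0.42 in STAT5ca tumours (0.0318), and Sec61b by 0.77 ± 0.23 in STAT5Δ750 tumours (0.0281). Among 16 constitutive proteasome genes, 3 rose in STAT5ca tumours (Psma7, Psma1 and Psmb2) and 2 in STAT5Δ750 tumours (Psma7 and Psma4). Psma7 rose by 0.87 ± 0.17 in STAT5ca tumours (0.00172) and by 0.82 ± 0.17 in STAT5Δ750 tumours (0.00344). The median change of that list was 0.42 in STAT5ca tumours and 0.38 in STAT5Δ750 tumours, and that of the 4 immunoproteasome genes, none of which passed, was -0.30 in STAT5ca tumours and -0.52 in STAT5Δ750 tumours. Without STAT5ca_177, 4 folding and supply genes and 6 proteasome genes rose in STAT5ca tumours, where 13.5% of all genes rose, and 5 and 5 in STAT5Δ750 tumours, where 11.8% did.

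Of 13 regulators of MHC transcription, 4 fell in each tumour type, where 13.2% and 14% of all genes fell. Rfx5, which binds the X box, fell, with log2 changes of -0.95 ± 0.23 in STAT5ca tumours (limma adjusted p = 0.00905) and -1.10 ± 0.24 in STAT5Δ750 tumours (0.00442). Irf4, a factor of B cells and other lymphoid cells, had -3.54 ± 0.81 in STAT5ca tumours (0.00590) and -3.27 ± 0.83 in STAT5Δ750 tumours (0.0111). Irf8, a myeloid and B cell factor, had -2.63 ± 0.84 in STAT5ca tumours (0.0368), and Irf2 had -1.49 ± 0.36 in STAT5Δ750 tumours (0.00788). Of 13 genes of interferon gamma signalling 1 fell in STAT5ca tumours, the kinase Jak1 with -1.12 ± 0.21 (0.00168). In STAT5Δ750 tumours 3 fell, Jak1 with -1.34 ± 0.22 (0.000553), Jak2 with -1.06 ± 0.27 (0.0122) and the receptor chain Ifngr1 with -1.12 ± 0.36 (0.0397). Without STAT5ca_177, 6 regulators and 4 interferon genes fell in STAT5ca tumours, where 17.5% of all genes fell, and 4 and 4 in STAT5Δ750 tumours, where 17.9% did. Irf4 was then above 35.4 on fewer than 3 tumour arrays. It was kept only with the glands, so the filter favoured its fall.

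Among 12 endosomal proteases and inhibitors, the protease Ctsh rose by 1.02 ± 0.25 in STAT5ca tumours (limma adjusted p = 0.00777), and the inhibitor Cst7 fell, with log2 changes of -2.57 ± 0.69 in STAT5ca tumours (0.0147) and -2.83 ± 0.70 in STAT5Δ750 tumours (0.00997). Of 5 class I like genes without an H2 name, Cd1d1, which presents lipids, fell, with -3.16 ± 0.48 in STAT5ca tumours (0.000234) and -2.63 ± 0.49 in STAT5Δ750 tumours (0.00145). Of 6 costimulation genes, 2 fell in STAT5ca tumours and 3 in STAT5Δ750 tumours. Beside these 3 lists, 13.2% of all genes fell in STAT5ca tumours and 14% in STAT5Δ750 tumours, and 6.72% rose in STAT5ca tumours. Icosl, the ligand of ICOS, had -2.60 ± 0.56 in STAT5ca tumours (0.00406) and -2.83 ± 0.58 in STAT5Δ750 tumours (0.00290). Cd48 had -2.66 ± 0.89 in STAT5ca tumours (0.0459) and -2.79 ± 0.91 in STAT5Δ750 tumours (0.0396), and Cd40 had -2.23 ± 0.72 in STAT5Δ750 tumours (0.0388). Without STAT5ca_177, 4 of 5 class I like genes and 5 of 6 costimulation genes fell in each tumour type, where 17.5% of all genes fell in STAT5ca tumours and 17.9% in STAT5Δ750 tumours.

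The choice of probe set bears on H2-D1. The array carries 9 probe sets annotated to it alone, and 3 of them (1427651_x_at, 1425614_x_at and 1452544_x_at) were bright on 2 arrays only. On STAT5ca_159 they read 1682, 1404 and 1844, and on gland 6 they read 2893, 2609 and 2887, while the other 14 arrays had between 1.1 and 42.5. Among all 22690 probe sets, these 3 alone read above 134.8 (the 60th percentile) on both arrays and over 8 times the highest of the other 14. The probe set used for the gene showed no such pattern, with 4174 on STAT5ca_159, 5354 on gland 6 and 2956 to 5853 on the others. The suffix _x_at marks probes that can match several like sequences, and 11 of the 13 probe sets annotated to H2-K1 or H2-D1 alone carry it. Signals of these close relatives may therefore be shared, and alleles of the H2 genes were not measured. The 16 further probe sets of members that were tested gave the call of their gene in both comparisons against gland. Only 1422891_at of H2-Ea, in STAT5Δ750 tumours, did so by passing, and the others did so by not passing. Sizes differed, with H2-D1 changes of -2.97 to -0.30 in STAT5Δ750 tumours against -0.25 for the set used. H2-Oa, H2-DMb2, H2-Eb1 and H2-Ke6 had no further probe set with 1 symbol.

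**Figure D5:**
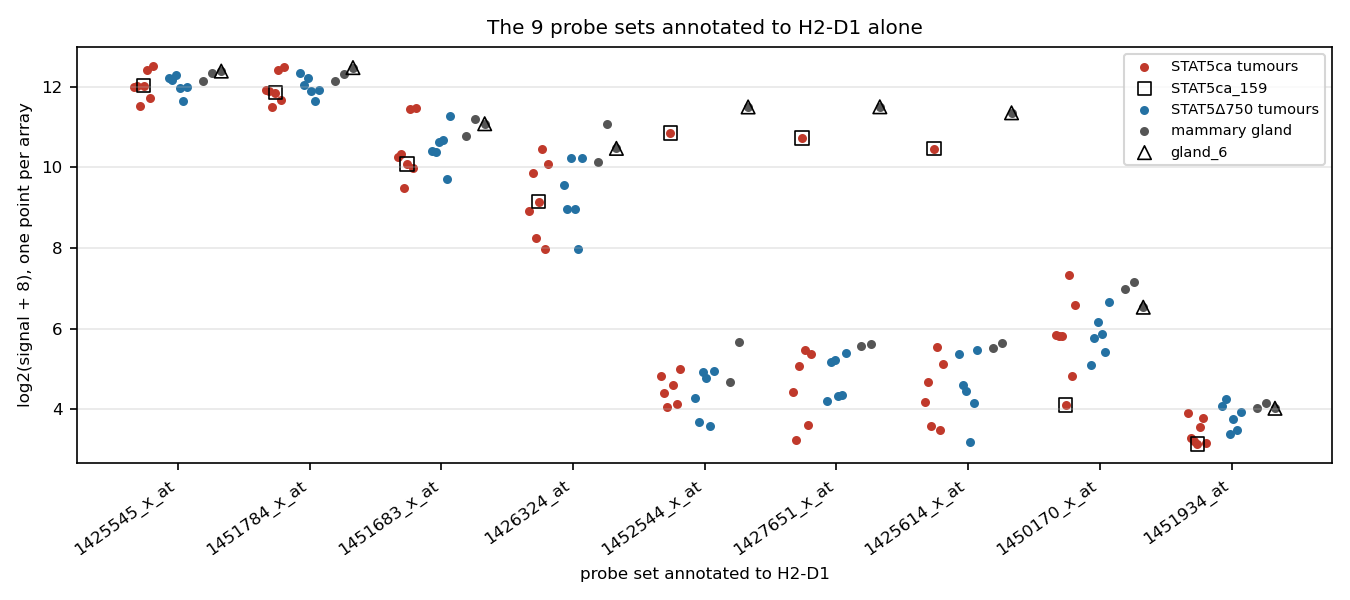
Log2(signal + 8) of the 9 probe sets annotated to H2-D1 alone, 1 point per array, with STAT5ca tumours, STAT5Δ750 tumours and gland from left to right. Squares ring STAT5ca_159 and triangles gland 6, the only arrays on which 1452544_x_at, 1427651_x_at and 1425614_x_at are bright.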

How the data were processed

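The authors deposited MAS5 signals, intensity on a linear scale for 22690 probe sets, per the file headers and the submitters' processing notes, which give no version. The mean signal after trimming 2% at each end was 250.1 on every array, and array medians ran from 57.3 to 90.7. Signals were used as deposited, as log2(signal + 8), so that changes of dim genes are understated. Of the probe sets, 20393 had 1 symbol, 691 had several and 1606 were unnamed here. Each gene took its single-symbol probe set with the highest mean, and genes above 35.4 on at least 3 arrays were tested.

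limma 3.58.1 in R 4.3.3 fitted 1 model with 3 groups (13 residual and 2.63 prior degrees of freedom) and was tested on simulated data. P values were two-sided and Benjamini-Hochberg adjusted over all genes tested, at 0.05. Cd74 minus B2m was tested by exact permutation. Figures used matplotlib 3.10.9 in Python 3.11.15. Sequences are from RefSeq, build GRCm38.p6.

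Members and lists were chosen with earlier results of these data known. Named in full are 14 chosen members, further members with the smallest adjusted p, and up to 3 passing genes per list and comparison. The pattern of H2-E against H2-A, the further probe sets of H2-K1 and H2-D1, those with several symbols, H2-M3, Psmb10 and H2-Q10 were chosen after their values were seen. Alternatives were other scalings, offsets, filters, probe set rules and fits, the actin ratio as a covariate, and leaving out arrays.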

Additional observations from a re-analysis of the deposited data

Results flagged for a closer look

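Of 46 sets of values (named members and 2 contrasts in each tumour type), 9 had 1 array far from its group, where chance gives about 5%, or 1 in 20, for a single set. The sets were read on shared arrays and are not independent, so the count is no test of an excess. All flags fell on STAT5ca_213, STAT5ca_177, STAT5Δ750_178 and STAT5Δ750_254. All values are log2(signal + 8). B2m was low on STAT5ca_213, at 11.02 where the rest of its type had 12.07 to 12.72, and on STAT5Δ750_178, at 11.03 against 12.17 to 12.56 on the others of its type. STAT5ca_177 was high in H2-DMa, at 11.89 against 5.32 to 8.12, in Ciita, at 8.05 against 3.88 to 5.34, and in Ifi30, at 11.88 against 9.65 to 10.55. STAT5Δ750_254 was high in H2-Oa, at 7.17 against 3.83 to 4.66, in H2-DMb2, at 7.34 against 4.63 to 5.42, and in H2-Ea, at 6.96 against 4.82 to 5.51. On that array the class II chains also lay nearest to the class I heavy chains, with a difference of -0.96 relative to the glands, against -3.30 to -2.60 on the other STAT5Δ750 arrays.

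Some probe sets that the comparisons did not use had a tumour mean above the highest gland. Those annotated to H2-DMb2 and H2-DMb1 together, 1449580_s_at and 1418638_at, had mean signals of 598.2 and 346.3 on STAT5ca arrays, against 311 to 372.9 and 125.2 to 163.8 in glands. STAT5ca_177 had 3261 and 1993 there, and without it the STAT5ca means were 154.4 and 71.95, below every gland. Their fitted log2 changes with all arrays were -1.01 and -0.59. The one annotated to Psme2b and Psme2, 1417189_at, had 1464 on STAT5ca arrays against 1117 to 1426 in glands, or 1377 without STAT5ca_177. A second Tapbp probe set, 1450378_at, had 414 on STAT5ca arrays and 344.7 on STAT5Δ750 arrays against 104.2 to 320.9 in glands. Its log2 change was 0.81 ± 0.64 in STAT5ca tumours and 0.80 ± 0.66 in STAT5Δ750 tumours, and neither passed. The 9 probe sets annotated to several class I heavy chains ran the other way, with negative log2 changes in both tumour types.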

How the results depend on the processing

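No paired analysis was possible because the groups share no array numbers. The call of H2-Oa in both tumour types and of H2-Ke6 in STAT5Δ750 tumours held under all 27 alternatives. For H2-Oa, the fits without STAT5ca_124, STAT5ca_177 or STAT5Δ750_254 and that with the filter at the 60th percentile add no support. In them it was kept only with the glands. No result reversed a call, and of 1695 single gene values under alternatives, 15 passed the threshold and 18 fell short of it where the reported fit did otherwise. When the third group was left out of the fit, 11 members were called in STAT5Δ750 tumours against gland, against 5 in the shared fit, while the genes called lower among all 9252 were 1714 (18.5%) against 1296 (14%). Ciita, kept mainly through the glands, is among the 11. With the actin 3'/5' ratio as a covariate, 1 member was called in STAT5ca tumours and 3 in STAT5Δ750 tumours, where 8.06% and 12.1% of all genes were called lower. Leaving out each array in turn gave 1 to 8 members in STAT5ca tumours (1 without gland 1, 4 or 6, and 8 without STAT5ca_177). All genes called lower were then 7.19%, 6.5% and 8.79% without gland 1, 4 or 6 and 17.5% without STAT5ca_177, against 13.2% with all arrays. In STAT5Δ750 tumours it gave 2 to 9 (2 without gland 1, 3 without gland 6, and 9 without STAT5ca_177), where 6.93%, 8.75% and 17.9% of all genes were called lower, against 14%. It gave 0 in STAT5ca against STAT5Δ750 tumours. The causes were not tested. The class II median change minus the class I median change stayed between -2.53 and -1.67 in STAT5ca tumours (-2.05 reported) and between -2.88 and -2.36 in STAT5Δ750 tumours (-2.52 reported) when arrays were left out. In STAT5ca tumours it was -1.06 with the mean of probe sets, -0.86 with the actin covariate and -2.07 to -1.67 under other offsets, and in STAT5Δ750 tumours -1.79, -2.42 and -2.82 to -1.89. For Cd74 minus B2m the difference from gland stayed between -1.51 and -0.95 in STAT5ca tumours and between -1.45 and -0.97 in STAT5Δ750 tumours, with no adjusted p under 0.0893. With no filter H2-Q10 also passed as lower in both tumour types, giving 3 members in STAT5ca tumours and 6 in STAT5Δ750 tumours. Of all 12394 genes, 11.1% and 11.2% were then called lower. H2-Q10 was dim throughout, with 26.7 to 43.3 in glands and 16.8 or less in tumours, and was above 35.4 on 1 array. Signals near the threshold of 35.4, as of Ciita, H2-Oa and H2-Q2 in most tumours, carry little information on the size of a change, and 3 glands limit every comparison with them.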
